A study of Mus musculus with 8 samples.

Results

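The genes described here are 51 mouse genes that copy DNA or that take a cell from G1 into S phase. They were taken from a written list of symbols, by a rule that uses no measured value, and all 51 were found among the 35275 gene identifiers of the table. The list itself was chosen with earlier results of these data known. Total RNA was sequenced from 8 mouse livers. Of these, 4 carried the label WT and 4 the label Triple LKO. The latter stands for a liver-specific loss of 3 members of the tristetraprolin family (Zfp36, Zfp36l1 and Zfp36l2). These are RNA-binding proteins that promote the decay of their target mRNAs. Each genotype held 2 females (libraries 1 and 2) and 2 males (libraries 3 and 4). The labels give tissue, genotype and sex only. Strain, age, any further allele shared by both groups, the recombinase that made the deletion, the part of the liver taken and whether it was tumour are absent from them. Whether each library came from its own animal is not stated either, so that the p-values speak only of the scatter among these 8 libraries.

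Replication starts when the origin recognition complex, Cdc6 and Cdt1 load the ring of Mcm2 to Mcm7 onto DNA in G1, a step called licensing, which geminin blocks once S phase has begun. Cdc45 and the GINS complex then turn the ring into a moving helicase, polymerases alpha, delta and epsilon copy both strands around the PCNA clamp, and Lig1 seals the lagging strand. E2F transcription factors and cyclin E switch on these genes late in G1. Most hepatocytes of a resting adult liver stand outside the cycle and keep these mRNAs low.

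The labels were checked first against the deleted genes, in FPKM (fragments per kilobase of transcript, scaled to library depth). Zfp36 and Zfp36l1 were lower in every LKO-labelled library than in any WT library. Zfp36l2 read 4.34 and 3.86 in the LKO-labelled males but 18.1 and 33.0 in the LKO-labelled females, above the WT libraries at 11.8, 14.9, 14.4 and 17.2. The groups are therefore called WT and LKO-labelled. Depth ranged from 15.1 to 18.8 M fragments. Mitochondrial genes took 2.8% and 3.44% of fragments in the LKO-labelled females, 7.08% and 10.41% in the LKO-labelled males and 6.52% to 7.75% in WT. On the first principal component of all genes tested the WT livers stood between -59.1 and -47.2, while LKO-labelled libraries 1 to 4 gave 102.2, 78.5, 11.4 and 15.3. The part of these differences in the results was not tested. The abundant transcript Gm42418 took between 3.185% and 4.337% of fragments in 6 libraries but 0.042% in LKO-labelled female 1 and 0.06% in WT male 4. Hepatocyte markers, summed over the 9 found of 10, lay between 54062 and 60299 FPKM in WT. They summed to 36628, 34039, 31935 and 26860 FPKM in LKO-labelled libraries 1 to 4. In the genotype test described below, 3 of the 9 passed as lower and 0 as higher, so the sum does not stand for the whole list. Summed markers of macrophages, T and NK cells, neutrophils, stellate cells and cholangiocytes were higher in both LKO-labelled females than in any other library, and those of B, erythroid and endothelial cells were not. The macrophage sum does not stand for its list. In the test described below, 5 of the 10 macrophage markers passed as higher within females and 5 as lower. Of the 8 stellate cell markers, 6 passed as higher within females and 1 as lower. These 8 summed to 372.2 and 1161 FPKM in the LKO-labelled females, 20.4 and 18.6 in the LKO-labelled males and 13.3 to 30.9 in WT. The 9 neutrophil markers gave 409.3 and 63.9 FPKM, 10 and 16.4, and 1.34 to 4.88 in the same order, although Camp, Cxcr2, Elane, Ly6g, Mpo and Ngp were each at 0 in at least 1 library. In bulk tissue, fewer cells of a type and less RNA per cell cannot be told apart.

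Because E2F factors act through a short DNA sequence, the promoters of the list were read first. RefSeq promoter windows, 250 bases before to 50 after the start of transcription on GRCm38.p6, were available for 42 of the 51 members, with 51 windows in all. The letters TTTGGCGC or TTTCGCGC or TTTCCCGC or TTTGCCGC, common forms of the E2F motif, were searched on both strands. The promoters shown are those of the ring subunits Mcm6, Mcm5 and Mcm3 and of the loader Cdt1, which hold the motif. That of Mcm10, the member whose mRNA fell, is shown too and does not hold it in this window. These examples do not stand for the list. In the test described below, 10 of 13 tested members with the letters rose, and 17 of 24 whose windows lack them. The Mcm10 window ends in TTTGGCG, the beginning of TTTGGCGC, and the base beyond its edge was not read. The Chek1 window ends in GCGGGAA in the same way, so a match that crosses an edge would be missed. Capitals mark the matches, and where a match on one strand overlaps a match on the other the capitals run on. Mcm6 lies at chr1:128359656-128359955 on the minus strand, Mcm5 at chr8:75109259-75109558 on the plus strand, Mcm3 at chr1:20820263-20820562 on the minus strand, Cdt1 at chr8:122567765-122568064 on the plus strand and Mcm10 at chr2:5012742-5013041 on the minus strand.
Mcm6: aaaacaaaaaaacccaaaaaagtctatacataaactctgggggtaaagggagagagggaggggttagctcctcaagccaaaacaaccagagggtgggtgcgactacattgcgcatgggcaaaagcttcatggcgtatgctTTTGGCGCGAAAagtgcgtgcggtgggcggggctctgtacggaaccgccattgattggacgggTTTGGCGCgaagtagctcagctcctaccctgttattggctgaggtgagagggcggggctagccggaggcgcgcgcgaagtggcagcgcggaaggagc
Mcm5: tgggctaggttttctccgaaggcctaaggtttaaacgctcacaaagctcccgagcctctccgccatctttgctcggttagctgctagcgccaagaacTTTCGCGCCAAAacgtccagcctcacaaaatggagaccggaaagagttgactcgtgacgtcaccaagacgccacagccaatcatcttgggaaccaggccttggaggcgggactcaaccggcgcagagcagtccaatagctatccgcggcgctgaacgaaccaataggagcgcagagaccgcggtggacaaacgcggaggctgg
Mcm3: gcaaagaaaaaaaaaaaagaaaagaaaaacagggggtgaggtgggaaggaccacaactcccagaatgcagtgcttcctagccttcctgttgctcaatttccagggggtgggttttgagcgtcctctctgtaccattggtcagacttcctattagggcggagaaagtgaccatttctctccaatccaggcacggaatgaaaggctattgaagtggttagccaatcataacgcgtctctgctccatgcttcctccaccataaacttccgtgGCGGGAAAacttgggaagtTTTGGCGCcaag
Cdt1: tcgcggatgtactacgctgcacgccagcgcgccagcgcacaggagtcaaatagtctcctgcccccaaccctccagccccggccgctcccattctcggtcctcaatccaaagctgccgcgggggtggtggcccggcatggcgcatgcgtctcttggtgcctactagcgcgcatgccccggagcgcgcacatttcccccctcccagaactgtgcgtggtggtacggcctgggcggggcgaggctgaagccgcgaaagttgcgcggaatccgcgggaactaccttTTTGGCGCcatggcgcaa
Mcm10: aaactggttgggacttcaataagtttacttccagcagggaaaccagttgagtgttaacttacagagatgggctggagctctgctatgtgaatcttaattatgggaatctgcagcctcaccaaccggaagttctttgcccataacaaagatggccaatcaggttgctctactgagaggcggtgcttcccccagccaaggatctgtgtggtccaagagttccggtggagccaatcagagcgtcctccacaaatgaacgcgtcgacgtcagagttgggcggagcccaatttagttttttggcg
The Mcm6 window held 3 matches, beginning 110, 106 and 47 bases before the start. That of Mcm5 held 2 overlapping ones, 153 and 149 bases before it. The matches of Mcm3 (19 and 38 bases) and Cdt1 (32 bases) lay after the start.

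The E2F letters were found in 17 of the 51 member windows (33.3%), against 2.3% of all 32851 promoter windows and 3.6% of the 12959 windows of genes tested. By contrast, they were in 1 of 24 windows (4.2%) of the G2/M genes, a list of 28 genes of the later cycle such as Cdk1 and Ccnb1. The letters TTTGAA, the core of the cell cycle homology region (CHR) of G2/M promoters, showed the opposite order, at 15.7% of member windows and 70.8% of G2/M windows against 12.4% for genes tested and 17.9% for all. The CCAAT box was found in 58.8% of member windows, 79.2% of G2/M windows, 37.2% of those of genes tested and 37.4% of all. The genes with the E2F letters were Orc1, Cdc6, Cdt1, Mcm3, Mcm5, Mcm6, Mcm7, Gins3, Pola1, Pold1, Pole2, Rfc3, Lig1, Uhrf1, Dnmt1, E2f2 and Clspn. A match is a string of letters, and binding was not measured here.

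**Figure D1:**
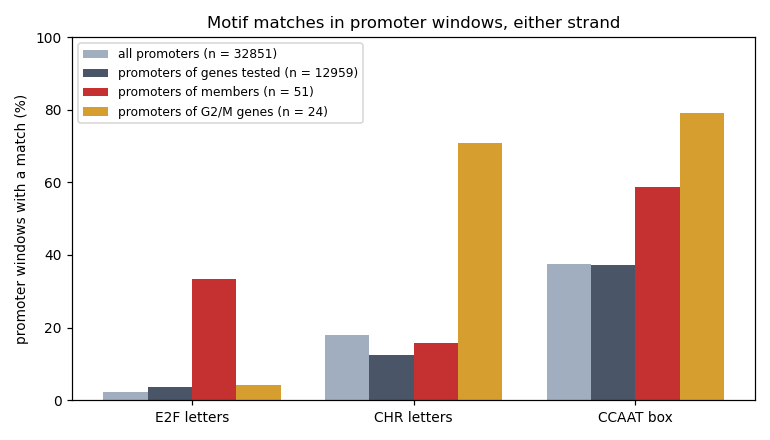
Share of promoter windows (percent) that hold each motif on either strand, for all promoters, promoters of genes tested, promoters of the replication and G1/S genes, and promoters of G2/M genes. The E2F letters stood at 33.3% in the replication and G1/S genes and 4.2% in G2/M genes, while the CHR letters stood at 15.7% and 70.8%.

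Across the list, mRNA of the replication machinery was higher in the LKO-labelled livers. A total of 46 members reached a mean of 0.5 FPKM over the 8 libraries and were tested with limma on log2(FPKM + 1), with genotype and sex as terms and p adjusted over all 13573 genes tested (threshold 0.05). Of these, 32 rose, 1 fell (Mcm10) and 13 did not pass, and 40 had an unadjusted p under 0.05. Of all genes tested, 24.7% rose and 5.74% fell. Of the 46, 9 had a WT mean under 0.5 FPKM and so passed the filter only through the LKO-labelled libraries (Asf1b, Ccne2, Chaf1a, Chek1, E2f2, Gins2, Pole, Pole2 and Uhrf1), which required them to differ. The 37 others held 24 that rose, Mcm10 that fell and 12 that did not pass. The remaining 5 members (Orc1, Cdc6, Gins3, Fen1 and Clspn) were under the filter and are given by their fragments.

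The median log2 difference of the tested members was 0.96, beside 0.39 for all genes tested. That general shift depends on the scaling. It was 0.06 after median-of-ratios scaling and -0.02 after quantile normalization, and the members stood above it by 0.57 as deposited, by 0.62 and by 0.52. Under median-of-ratios scaling 21 members rose, against 10.6% of all genes, and under quantile normalization 12 rose, against 7.7%. In both cases 2 fell, Mcm10 and Tk1. The count also moved with single libraries: 21 rose without WT female 1, 19 without WT female 2 and 21 without LKO-labelled male 4, and 17 without the 2 libraries low in Gm42418. The count over all genes fell too, from 3353 of 13573. In the same order it was 1866 of 13698, 1495 of 13655, 2176 of 13610 and 1630 of 13322. The 12 members that rose in each of these fits and in all other alternatives that tested them were Cdt1, Mcm2, Mcm3, Mcm5, Mcm6, Pcna, Lig1, Rrm2, Uhrf1, Dnmt1, Chaf1b and E2f1, and Mcm10 fell in each. In every LKO-labelled library, 34 of the 46 tested members lay above every WT library, where 25.6% of all genes did. The 34 include all 9 members that passed the filter only through the LKO-labelled libraries. Mcm10 was the member below every WT library, where 5.72% of all genes were.

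**Figure D2:**
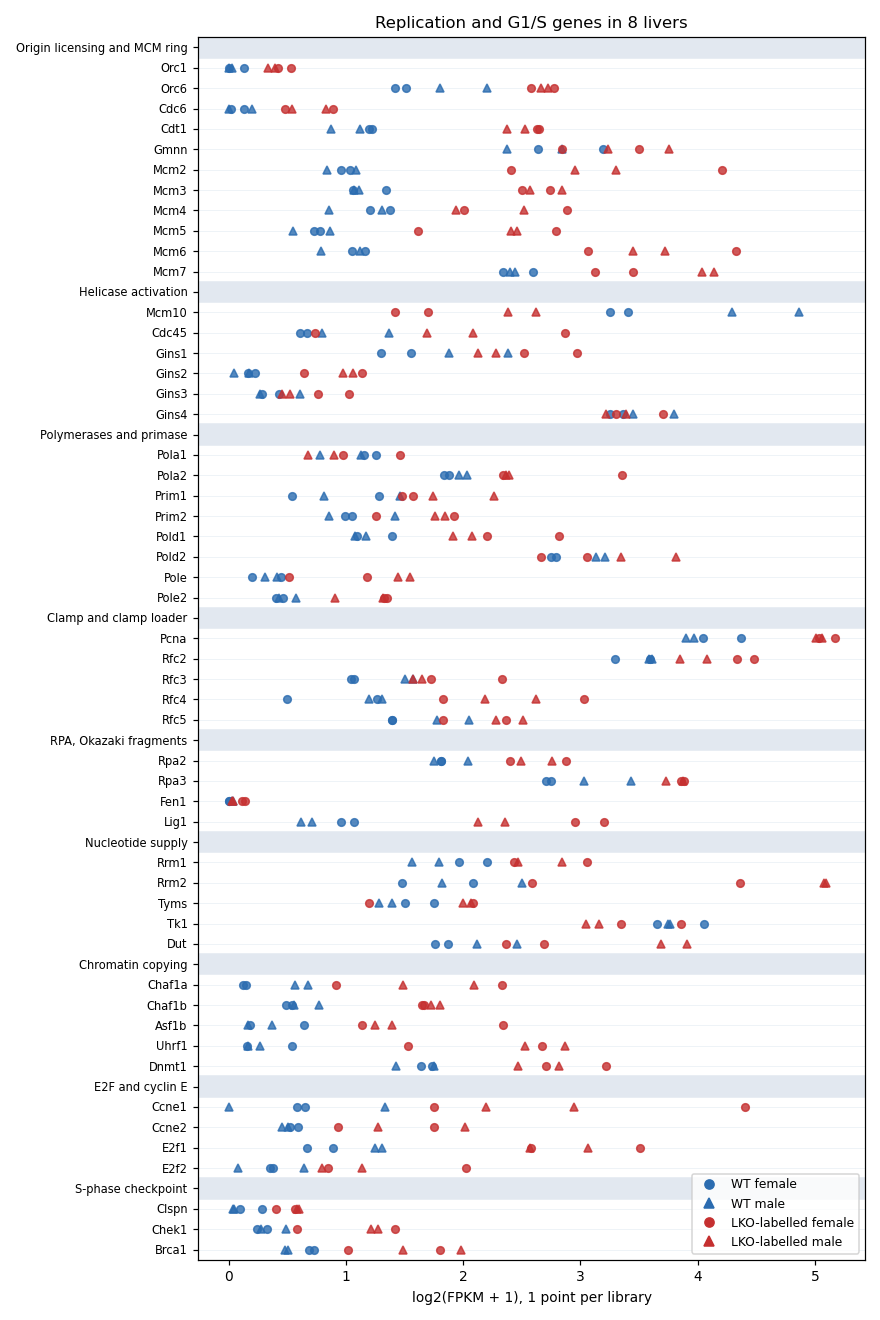
Level of each of the 51 genes in each of the 8 livers, as log2(FPKM + 1), with 1 point per library, circles for females and triangles for males, grouped by role. In most rows the 4 LKO-labelled points (red) lie to the right of the 4 WT points (blue), whereas those of Mcm10 lie to the left.

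In origin licensing, 8 of 9 tested members rose, with a median log2 difference of 1.44. Mcm6, the ring subunit with the largest change (ENSMUSG00000026355, chr1:128331590-128359664, minus strand), read 1.24, 1.08, 1.18 and 0.729 FPKM in WT libraries 1 to 4 and 19.1, 7.35, 9.92 and 12.2 FPKM in the LKO-labelled ones. The groups lay far apart, and the lowest LKO-labelled value, in female 2, was still several times the highest WT value. The log2 difference was 2.61 ± 0.27 (SE, n = 4 per group, limma adjusted p = 0.000963), an 11.5-fold ratio of mean FPKM. This was also the smallest p of the group. Mcm2, a ring subunit that also carries histones, read 0.947, 1.05, 1.12 and 0.786 FPKM in WT and 17.5, 4.30, 6.76 and 8.87 FPKM in the LKO-labelled livers. Female 1 stood highest and female 2 lowest, and no value overlapped (log2 2.24 ± 0.35 SE, limma adjusted p = 0.00417).

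The remaining ring subunits moved less. Mcm5 (log2 1.59 ± 0.27) and Mcm3 (1.52 ± 0.17) rose 6.31-fold and 4.40-fold in mean FPKM, and Mcm7 (1.24 ± 0.22) and Mcm4 (1.15 ± 0.25) 2.79-fold and 3.27-fold. The 50-base words of Mcm7 exons are shared for 34.2% of positions with other loci, among them Gm5487, so its level is less certain than that of Mcm6, where the share is 0.5%. Although the 6 subunits form 1 ring with a copy of each, their mRNA levels per length were unequal. In WT livers the highest, Mcm7, stood 5.37 to 9.19 times above the lowest, Mcm5. In the LKO-labelled livers the highest stood 3.34 to 5.85 times above the lowest, and female 1 was the library in which Mcm6 and not Mcm7 led.

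Cdt1, which brings the ring to the origin, read 1.29, 1.34, 0.835 and 1.18 FPKM in WT and 5.25, 5.20, 4.77 and 4.20 FPKM in the LKO-labelled livers. The LKO-labelled values were close to each other and all above WT (log2 1.44 ± 0.16 SE, limma adjusted p = 0.00116). Geminin (Gmnn), the inhibitor of Cdt1, did not pass, at 8.12, 5.22, 4.18 and 6.17 FPKM against 10.3, 6.19, 8.41 and 12.5 FPKM, with overlapping groups (log2 0.57 ± 0.26, limma adjusted p = 0.119). Orc6, a subunit of the origin recognition complex, rose by a log2 difference of 0.95 ± 0.19. Orc1, the subunit that with Cdc6 completes the ATPase of the loader, had 0, 5, 0 and 1 fragments in WT libraries and 21, 17, 15 and 17 in LKO-labelled ones. Cdc6 had 1, 8, 0 and 11 fragments in WT and 64, 32, 41 and 67 in LKO-labelled livers. Both were higher in every LKO-labelled library, at levels that stayed under 1 FPKM.

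**Figure D3:**
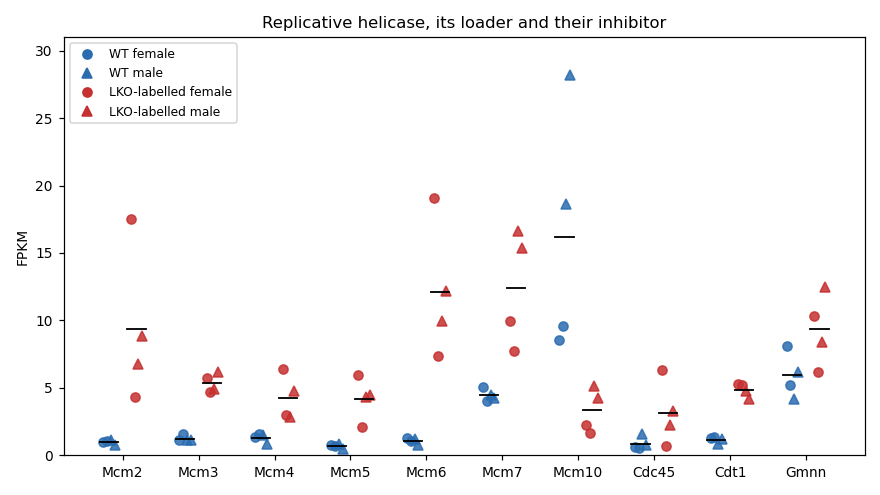
FPKM of the Mcm2 to Mcm7 ring, Mcm10, Cdc45, Cdt1 and geminin (Gmnn) in each liver, with WT at the left and LKO-labelled at the right of each gene and a bar at the group mean. Mcm6 averaged 1.06 FPKM in WT and 12.1 FPKM in the LKO-labelled livers, and Mcm10 averaged 16.2 and 3.33.

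Mcm10, an initiation factor that helps the helicase to start and is no part of the ring, went the other way. The gene (ENSMUSG00000026669, chr2:4989714-5012791, minus strand) shares no exon bases with an annotated neighbour. It read 8.51, 9.58, 18.6 and 28.2 FPKM in WT and 2.25, 1.68, 5.15 and 4.22 FPKM in the LKO-labelled livers. The WT males were above the WT females, the LKO-labelled males above the LKO-labelled females, and each LKO-labelled liver below every WT liver. The log2 difference was -1.92 ± 0.19 (SE, n = 4 per group, limma adjusted p = 0.000934), and the LKO-labelled mean was 20.5% of the WT mean. In WT liver Mcm10 had the highest mean FPKM of the 51 genes, 16.2 ± 9.17 (SD, n = 4), within its spread of Pcna at 16.0 ± 2.58. In the LKO-labelled livers its mean of 3.33 ± 1.63 FPKM stood below those of Mcm2 to Mcm7.

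The other activation factors were mixed, and 1 of them, Gins2, passed, after reaching the filter only through the LKO-labelled libraries. Its call was lost in 7 alternatives and kept in 7. Gins2 averaged 0.113 ± 0.0559 FPKM in WT and 0.957 ± 0.278 in LKO-labelled samples (SD, n = 4 each), but 67.3% of its exon bases lie under Gse1 on the opposite strand. Whether counting used strand is not given in the sources used here, so reads of the pair cannot be told apart. Gse1 itself averaged 1.60 and 3.10 FPKM. Cdc45, the helicase cofactor, read 0.590, 0.522, 1.58 and 0.741 FPKM in WT and 6.32, 0.668, 2.24 and 3.25 FPKM in the LKO-labelled livers. LKO-labelled female 2 lay among the WT livers, and the gene did not pass (log2 0.99 ± 0.42, limma adjusted p = 0.102).

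Of the remaining GINS subunits, Gins1 read 1.94, 1.46, 4.23 and 2.68 FPKM against 6.85, 4.72, 3.38 and 3.87 FPKM (limma adjusted p = 0.0956). Its females were apart and its males overlapped. Gins4 read 8.52, 9.28, 9.91 and 12.9 FPKM against 12, 8.87, 8.31 and 9.46 FPKM (log2 -0.06 ± 0.19, limma adjusted p = 0.815). Gins3, under the filter, had 9 to 19 fragments in WT libraries and 17 to 39 in LKO-labelled ones. The 4 subunits form a single complex, and Gins4 had the highest level per length of them in both groups.

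Among the polymerases and primase, 3 of 8 rose, Pold1, Pole and Pole2, and the group's median log2 difference was 0.71. Pole and Pole2 passed the filter only through the LKO-labelled libraries. Pold1, the catalytic subunit of polymerase delta, read 1.14, 1.62, 1.11 and 1.25 FPKM in WT and 6.06, 3.6, 3.21 and 2.76 FPKM in the LKO-labelled livers, with no overlap (log2 1.07 ± 0.21, limma adjusted p = 0.00888). Pole, that of polymerase epsilon, averaged 0.271 ± 0.0954 and 1.34 ± 0.662 FPKM, and its accessory subunit Pole2 0.386 ± 0.074 and 1.36 ± 0.320 FPKM (SD, n = 4 each). Pole lost its call in 11 alternatives and kept it in 6, and Pole2 lost it in 8 and kept it in 9.

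The polymerase alpha and primase complex, which lays the RNA-DNA primer, had no member past the threshold. Its catalytic subunit Pola1 read 1.39, 1.23, 1.19 and 0.718 FPKM in WT and 0.972, 1.76, 0.597 and 0.860 FPKM in the LKO-labelled livers (log2 -0.08 ± 0.20, limma adjusted p = 0.784). The groups overlapped throughout, although its promoter holds the E2F letters. The accessory subunit Pola2 read 2.58, 2.69, 2.90 and 3.09 FPKM against 9.24, 4.06, 4.15 and 4.26 FPKM. Every LKO-labelled liver was above WT, with female 1 well apart (log2 0.68 ± 0.25, limma adjusted p = 0.0681). Prim1, the primase catalytic subunit, read 1.44, 0.451, 1.75 and 0.762 FPKM against 1.97, 1.79, 3.81 and 2.35 FPKM (limma adjusted p = 0.0560). Its partner Prim2 read 1.08, 0.986, 1.67 and 0.811 FPKM against 2.78, 1.39, 2.59 and 2.38 FPKM (limma adjusted p = 0.0635). Prim1 did not overlap between groups and Prim2 did, through LKO-labelled female 2. Pold2, a polymerase delta subunit, read 5.74, 5.93, 7.80 and 8.24 FPKM against 7.33, 5.33, 13.1 and 9.17 FPKM (limma adjusted p = 0.323). Its groups overlapped in the females.

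**Figure D4:**
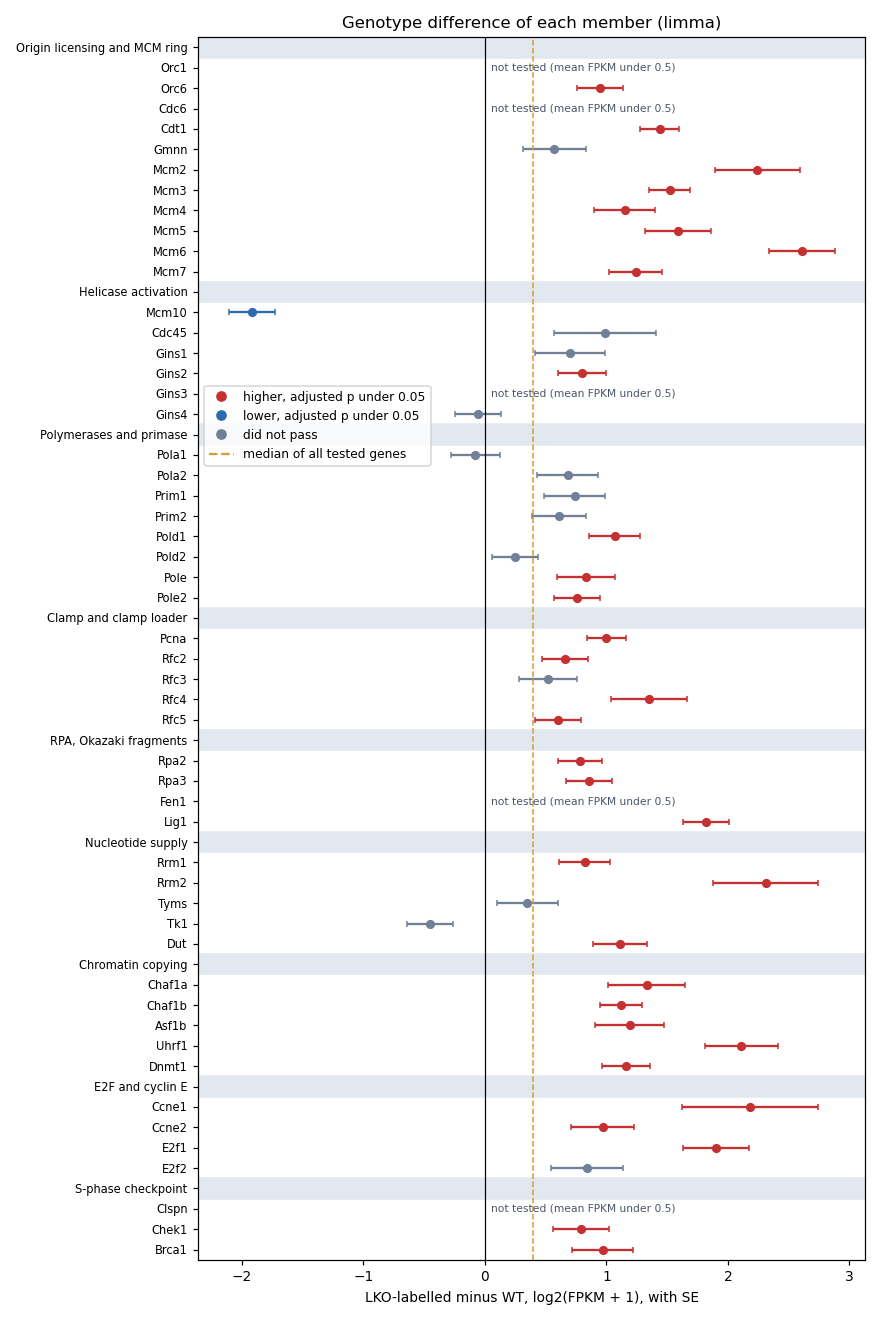
Difference between LKO-labelled and WT livers for each gene on the log2(FPKM + 1) scale, with bars of 1 SE from limma, coloured by the test outcome, and a dashed line at the median of all genes tested (0.39). Mcm6 stood highest at 2.61, Mcm10 lowest at -1.92, and 5 genes were not tested.

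The clamp and its loader rose in 4 of 5 cases, with a median log2 difference of 0.66. Pcna, the sliding clamp, had the highest mean FPKM of the list in the LKO-labelled livers, and read 19.7, 15.5, 13.9 and 14.7 in WT and 31.7, 35.0, 32.4 and 31.3 in LKO-labelled livers. The 4 LKO-labelled values lay close together, clear of WT (log2 1.0 ± 0.16, limma adjusted p = 0.00436). Of its 50-base words, 31.8% are shared with the pseudogene Pcna-ps2. Rfc4, a loader subunit, showed the largest difference of the group, at 1.41, 0.414, 1.47 and 1.29 FPKM against 7.18, 2.56, 5.16 and 3.55 FPKM (log2 1.35 ± 0.31, limma adjusted p = 0.0150). No value overlapped. Rfc2 and Rfc5 passed with smaller differences of 0.66 ± 0.19 and 0.60 ± 0.19, and lost their calls in 10 and 15 of 18 alternatives. Rfc3 read 1.10, 1.06, 1.83 and 1.97 FPKM against 4.03, 2.30, 1.97 and 2.14 FPKM and did not pass (limma adjusted p = 0.127). In Rfc3 the males met and the females stood apart.

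All 3 tested genes of single-stranded DNA and Okazaki fragment handling rose. Lig1, the ligase of the lagging strand (ENSMUSG00000056394, chr7:13277283-13311433, plus strand), read 0.939, 1.10, 0.639 and 0.537 FPKM in WT and 8.21, 6.73, 3.37 and 4.13 FPKM in the LKO-labelled livers. The LKO-labelled females were highest and every LKO-labelled liver was above WT (log2 1.82 ± 0.19, limma adjusted p = 0.000934). Rpa2 and Rpa3, subunits of the single-strand binding protein RPA, rose by 0.78 ± 0.18 and 0.86 ± 0.19 on the log2 scale. They lost their calls in 5 and 4 of 18 alternatives. Fen1, the flap nuclease that trims Okazaki fragments, had 0, 0, 1 and 1 fragments in WT libraries and 3, 4, 1 and 1 in LKO-labelled ones, too few for any statement about genotype. Of its exon bases, 84.2% lie under Gm10143 and Tmem258 on the opposite strand. How reads in such an overlap were counted is not given in the sources used here.

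In nucleotide supply, 3 of 5 rose. Rrm2, the regulated subunit of ribonucleotide reductase (ENSMUSG00000020649, chr12:24708241-24714146, plus strand), read 1.78, 3.25, 2.53 and 4.65 FPKM in WT and 19.5, 5.0, 32.7 and 33.1 FPKM in the LKO-labelled livers. LKO-labelled female 2 was just above the highest WT liver, and both males were highest (log2 2.31 ± 0.43, limma adjusted p = 0.00741). Its large subunit Rrm1 rose by 0.82 ± 0.21, from 2.73 ± 0.697 to 5.61 ± 1.40 FPKM (SD, n = 4 each). Dut, which removes dUTP, rose by 1.11 ± 0.22 although LKO-labelled female 1 at 4.15 FPKM lay under WT male 3 at 4.49 FPKM. Rrm1 lost its call in 7 alternatives and Dut in 3.

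Both thymidylate genes failed to pass. Tk1, thymidine kinase of the salvage route, read 11.6, 15.6, 12.6 and 12.4 FPKM in WT and 13.5, 9.15, 7.27 and 7.93 FPKM in the LKO-labelled livers (log2 -0.45 ± 0.19, limma adjusted p = 0.102). Libraries 2 to 4 of the LKO-labelled group lay below WT and female 1 within it. Tk1 passed as lower after median-of-ratios scaling (log2 -0.85, limma adjusted p = 0.0132), after quantile normalization (-0.86, limma adjusted p = 0.0172) and without LKO-labelled female 1 (-0.59, limma adjusted p = 0.0382). Tyms, thymidylate synthase, read 1.84, 2.36, 1.43 and 1.62 FPKM against 3.24, 1.29, 3.18 and 2.99 FPKM (limma adjusted p = 0.296). LKO-labelled female 2 was the lowest of all 8 livers for Tyms and the other 3 LKO-labelled livers were the highest.

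All 5 genes that restore chromatin behind the fork rose, with a median log2 difference of 1.19. Uhrf1, Chaf1a and Asf1b passed the filter only through the LKO-labelled libraries, which required them to differ, and Dnmt1 and Chaf1b did not. Uhrf1, which guides the maintenance methylase to newly copied DNA (ENSMUSG00000001228, chr17:56303321-56323486, plus strand), read 0.118, 0.459, 0.124 and 0.203 FPKM in WT and 5.39, 1.88, 4.78 and 6.29 FPKM in the LKO-labelled livers. The mean rose 20.3-fold, from 7 to 28 fragments per WT library to 113 to 402 per LKO-labelled one, without overlap (log2 2.11 ± 0.30, limma adjusted p = 0.00295). This was the largest ratio of means among the 51, and 18.9% of the gene's 50-base words are shared with Gm5648 and Gm15953. Dnmt1, the maintenance methylase itself, rose by 1.16 ± 0.20. Chaf1b and Chaf1a, subunits of the histone chaperone CAF-1, rose by 1.12 ± 0.17 and 1.33 ± 0.32, and the histone chaperone Asf1b by 1.19 ± 0.28. Chaf1a lost its call in 5 alternatives and Asf1b in 3. Of the exon bases of Chaf1a, 52.5% lie under Ubxn6 on the opposite strand, a gene at 14.2 and 20.1 FPKM in the 2 groups.

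Of the genes that drive entry into S phase, E2f1, Ccne1 and Ccne2 rose. Ccne2 and E2f2 passed the filter only through the LKO-labelled libraries. E2f1, an activating transcription factor, read 0.590, 0.854, 1.37 and 1.47 FPKM in WT and 10.4, 4.98, 4.93 and 7.35 FPKM in the LKO-labelled livers, with no overlap (log2 1.90 ± 0.27, limma adjusted p = 0.00298). Ccne1, which encodes cyclin E1, read 0.572, 0.50, 0 and 1.52 FPKM against 20.2, 2.36, 3.59 and 6.70 FPKM. LKO-labelled female 1 stood far above the rest and its group SD was as large as its mean, 8.22 FPKM (log2 2.18 ± 0.56, limma adjusted p = 0.0224). Ccne1 lost its call in 6 alternatives and kept it in 12. Ccne2, cyclin E2, rose by 0.97 ± 0.26, a call lost in 11 alternatives and kept in 6. E2f2, a second activator, read 0.279, 0.298, 0.0584 and 0.559 FPKM against 3.07, 0.805, 0.741 and 1.2 FPKM and did not pass (limma adjusted p = 0.0620) although its groups did not overlap.

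Both tested checkpoint genes rose, although Chek1 passed the filter only through the LKO-labelled libraries. Brca1, which protects stalled forks, read 0.605, 0.654, 0.396 and 0.423 FPKM in WT and 2.48, 1.02, 1.80 and 2.94 FPKM in the LKO-labelled livers, with female 2 closest to WT (log2 0.97 ± 0.25, limma adjusted p = 0.0225). Chek1, the kinase that signals stalled forks, rose by 0.79 ± 0.23, from 0.264 ± 0.10 to 1.23 ± 0.506 FPKM (SD, n = 4 each). Brca1 lost its call in 9 alternatives and Chek1 in 11, and neither passed within females. Claspin (Clspn), its adaptor, was under the filter, with 2 to 18 fragments in WT libraries and 27 to 47 in LKO-labelled ones.

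The LKO-labelled livers did not share 1 level. Female 1 was the highest of its group in 32 of the 51 genes and female 2 the lowest in 30. The tested members lay above the WT mean by a median log2 of 1.13 in female 1, 0.63 in female 2, 0.88 in male 3 and 0.98 in male 4. For all genes tested the same medians were 0.51, 0.41, 0.18 and 0.21. The members thus stood farther above the other genes of their own library in the 2 males than in female 2. Female 2 had the highest summed stellate and cholangiocyte markers (1161 and 3185 FPKM). In the males the stellate sums lay within the WT range and the cholangiocyte sums, 16 and 15.1 FPKM, below the WT range of 25.2 to 31.6 FPKM. Of the 8 cholangiocyte markers 5 were tested, and within females 3 passed as higher and 0 as lower. Cftr, Epcam, Krt19 and Krt7 were each at 0 in at least 1 library. The part of other cells in the female values was not tested. Between 26 and 31 of the 51 genes reached 1 FPKM in a WT liver, and 46, 39, 42 and 45 in the LKO-labelled livers 1 to 4.

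Within females, 27 members rose and 1 fell, with a median of 0.98, where 28.1% of all genes rose and 6.23% fell. Within males, 18 rose and 1 fell, with a median of 0.94, where 13.4% rose and 4.09% fell. Each rests on 2 livers against 2, and a fit without 1 library leaves 1 liver in a group. The male count fell much without any single male. It grew without either LKO-labelled female, whose spread then no longer enters the model's shared estimate. The female count fell without either WT female. In all these fits the count over all genes moved in the same direction. Mcm6 was alike in both sexes, at 2.58 ± 0.39 in females and 2.63 ± 0.39 in males, with a difference between them of -0.05 ± 0.55 on the log2 scale. Cdt1 gave 1.43 ± 0.20 and 1.45 ± 0.20. Mcm10 gave -1.76 ± 0.26 and -2.08 ± 0.26.

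No member's genotype difference differed between the sexes by limma at the adjusted threshold, where 7.21% of all genes did. At an unadjusted p under 0.05 there were 4 members, and limma-voom on recovered fragments called 0, where it called 0.199% of all genes. Those 4, picked after their values were seen, were Gins1 and Rfc3, with larger differences in females, and Mcm7 and Dut, with larger differences in males. Gins1, for example, gave 1.32 ± 0.27 in females and 0.07 ± 0.27 in males (limma adjusted p of the interaction = 0.0892). Mcm7 gave 0.82 ± 0.21 and 1.67 ± 0.21 (limma adjusted p = 0.127). Single libraries moved this count. Without LKO-labelled female 1 the interaction passed for Rrm2, Tyms and Uhrf1, each larger in males, and without female 2 for Cdc45, Gins1, Pola2 and Rfc3, each larger in females. In these fits 18.2% and 20.4% of all genes passed, more than the share of members.

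**Figure D5:**
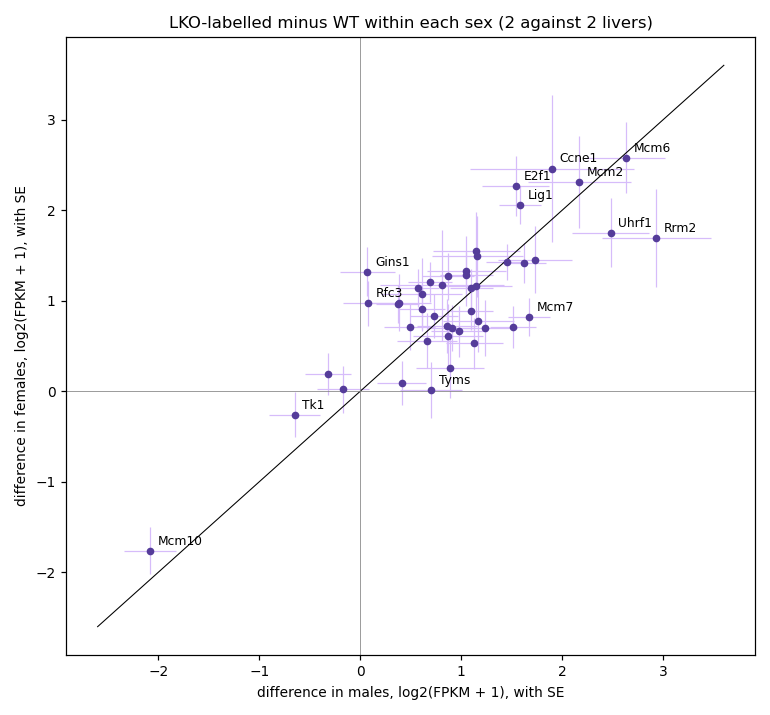
Genotype difference within females against that within males for the 46 tested genes, on the log2(FPKM + 1) scale with bars of 1 SE and the line of equality. Mcm6 lies near the line at 2.63 in males and 2.58 in females, Mcm10 near it at -2.08 and -1.76, and Gins1 far off it at 0.07 and 1.32.

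Tested members with the E2F letters in their promoter had a median log2 difference of 1.24, and 10 of 13 rose. Among all genes tested the share that rose was 24.7%. Of the 24 tested members whose windows lack the letters, 17 rose and Mcm10 fell, with a median of 0.96. Of the 9 without a window, 5 rose, with a median of 0.70. Some genes stood against this order on either side. Mcm2 and Rrm2 rose strongly with no match in the window, and Pola1, Rfc3 and E2f2 with a match did not pass. Uhrf1, Pole2 and E2f2 with the letters passed the filter only through the LKO-labelled libraries. So did Asf1b, Chaf1a and Chek1 without the letters, and Ccne2, Gins2 and Pole with no window. The difference between the groups with and without the letters was not tested.

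Beyond the 51 genes, 85 other genes of replication and of entry into S phase were read from a separate list. Of the 74 tested, 37 rose and 0 fell by limma, where 49 had an unadjusted p under 0.05, and the median log2 difference was 0.71. Of all genes tested, 24.7% rose. In 7 of the 74 the WT mean was under 0.5 FPKM, and all 7 rose. Scaling changed these counts to 14 higher and 2 lower (Rbl2 and Tfdp2) after median-of-ratios, and to 7 higher and 4 lower (Mcm9, Rbl2, Rev3l and Tfdp2) after quantile normalization, where 10.6% and 7.7% of all genes rose. The 7 of 74 lie near that background. Limma-voom on recovered fragments gave 44 higher and 0 lower. In other licensing genes 7 of 12 rose, with the smallest p for Mtbp, a partner of the firing factor treslin (1.05 ± 0.22), and Orc2, an origin recognition subunit (0.87 ± 0.18). In other fork genes 9 of 17 rose, led by Rnaseh2a, which removes RNA from DNA (1.23 ± 0.19), and Tipin, a fork protection factor (1.33 ± 0.21). In nucleotide and chromatin genes 6 of 13 rose, led by Rrm2b, the p53-induced reductase subunit (1.37 ± 0.18), and Esco2, a cohesin acetylase (1.51 ± 0.25). Among other G1/S genes 8 of 17 rose, led by the kinase subunits Cks1b (1.85 ± 0.22) and Cks2 (1.15 ± 0.19). Among checkpoint and repair genes 7 of 15 rose, with the smallest p for the mismatch repair gene Msh6 (0.83 ± 0.18). Rad9a, a subunit of the checkpoint clamp, was the sole one of the 74 whose difference passed between the sexes, and it is named after its values were seen. It gave 1.82 in females and 0.02 in males (log2 difference between them 1.79, limma adjusted p = 0.0282).

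Of the G2/M list, whose genes act after S phase, 27 of 27 tested genes rose, with a median log2 difference of 1.78. Of these, 24 had a WT mean under 0.5 FPKM and so passed the filter only through the LKO-labelled libraries, which required them to differ. The 3 others (Aurka, Cenpa and Mad2l1) rose too, and 28 of 28 rose when no filter was set. Their WT means ran from 0.00713 to 2.01 FPKM, those of the 51 members from 0.0128 to 16.2 FPKM, and log2(FPKM + 1) understates changes at low levels. With a pseudocount of 0.1 the medians were 3.46 for G2/M and 1.49 for the replication and G1/S members. By library, the G2/M median above the WT mean was 2.18, 0.87, 1.75 and 2.19 in LKO-labelled livers 1 to 4, again lowest in female 2.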

How the data were processed

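The deposited table holds FPKM values for 35275 gene identifiers, with a column for each liver. The tools named in the submitters' processing notes are STAR 2.6.1, fastp, DESeq2 and HTSeq, and the genome is mm10. What each did, the annotation and the strand setting are not given there. The members and lists were chosen with earlier results of these data known. Symbols came from a gene name table (34490 identifiers matched).

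Genes with a mean of at least 0.5 FPKM (13573) were tested on log2(FPKM + 1) with limma 3.58.1 in R 4.3.3. The terms were genotype and sex, or 1 mean per genotype and sex for contrasts within a sex and their difference. P-values were Benjamini-Hochberg adjusted over all genes tested, with a threshold of 0.05. Whole fragments were recovered from the FPKM steps: 100.0% of values were whole to within 0.001 of a fragment, at depths of 15.1 to 18.8 M fragments, and the recovered fragments summed to 99.069% to 99.537% of depth. A gene at 0 may have up to 3 fragments, a limit that covers counting error only. As an alternative, limma-voom was run on these fragments, which called 4214 genes higher and 846 lower where the main test called 3353 and 779.

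Named members are, in each role group, those with the smallest p, the largest difference or no pass, and among other replication genes the 2 smallest p per group and those that fell, except 1 gene that is not reported here. Before use, the test was run on data simulated with known rises, without a sex effect or a general shift. That run does not cover the general shift and the unequal livers seen here. Exon overlaps and positions, 1-based on GRCm38 (mm10), came from GENCODE M21. The 50-base words shared with other transcripts were counted in its transcript sequences. Promoter windows were RefSeq's, on GRCm38.p6.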

Additional observations from a re-analysis of the deposited data

Results flagged for a closer look

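In 9 of 102 groups of 4 livers, 1 liver's FPKM lay apart from the other 3 by a gap beyond Dixon's critical value for 4 samples, which chance alone passes in about 1 in 20 groups. LKO-labelled female 1 was the one apart, on the high side, for Pola2 at 9.24 (the others 4.06 to 4.26), Rfc3 at 4.03 (1.97 to 2.30) and Asf1b at 4.06 (1.2 to 1.63). LKO-labelled female 2 was the one apart, on the low side, for Tyms at 1.29 (2.99 to 3.24) and Clspn at 0.32 (0.485 to 0.513). LKO-labelled male 3 was low for Pole2 at 0.879 (1.49 to 1.55). WT female 2 was high for Mcm3 at 1.54 (1.09 to 1.16) and low for Rfc2 at 8.84 (11 to 11.2) and Rfc4 at 0.414 (1.29 to 1.47). These are FPKM values of single libraries, and no cause was tested.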

How the results depend on the processing

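No member's call reversed in the 18 alternatives. Of the 33 calls, 13 were kept in every alternative that tested the gene and 20 were lost in at least 1. The count of members that rose, 32, became 21 with median-of-ratios scaling, 12 with quantile normalization and 17 without the 2 libraries low in Gm42418, and 19 to 37 with 1 library left out. Over all genes 3353 became 1433 and 1045 under the same scalings and 1630 without the libraries low in Gm42418. The members' median difference, 0.96, became 0.50 after quantile normalization, 1.49 with a pseudocount of 0.1 and 1.54 by limma-voom. Over all genes within females, 3812 of 13573 became 2052 with median-of-ratios scaling and 1681 with quantile normalization. The 5 of 46 members that rose within females after quantile normalization lie near that share of all genes, 1681 of 13573. That count therefore does not set the members apart from other genes. Within females the 27 became 13 and 5 under these 2 scalings, and 9 to 37 with 1 library left out. Within males the 18 became 8 under quantile normalization and 4 to 31 with 1 library left out. The 0 members that differed between the sexes became 0 to 4 with 1 library left out, and 1 (Rrm2) without the 2 libraries low in Gm42418. For the other replication genes the 37 became 14 with median-of-ratios scaling and 7 with quantile normalization. They became 11 without the 2 libraries low in Gm42418 and 18 to 39 with 1 library left out. The 11 of 73 tested lie near the share of all genes in that fit, 1630 of 13322. The 27 G2/M genes became 21 with quantile normalization, 18 without the 2 libraries low in Gm42418, and 14 of 14 tested at a mean FPKM of at least 2, since fewer were tested. Other causes were not tested. With neighbouring title numbers as a replicate block, 24 members, 22 other replication genes and 25 G2/M genes rose. No label says that these numbers pair the livers, and deviations within the pairs correlated by 0.024 to 0.254. A fit with 1 library left in an arm assumes that it varies like the others. Genes with few fragments, such as Fen1, Orc1 and Cdc6, are limited by depth.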
